A study of Mus musculus with 12 samples.

Results

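The muscle acetylcholine receptor and its endplate organisers were followed in whole mouse cerebellum as a set of 10 genes out of 55385 listed in the deposited tables. The genes were chosen by symbol, with their fold changes and calls in the comparison of genotypes already known. They are the 5 subunit genes of the muscle nicotinic receptor (Chrna1, Chrnb1, Chrnd, Chrng and Chrne) and 5 genes of the machinery that gathers the receptor under the nerve ending (Agrn, Lrp4, Musk, Dok7 and Rapsn). All 10 were found, and 9 had enough counts to be tested; Chrne did not. RNA was measured in 3 wild-type (WT) and 3 EED-/- libraries, all of cerebellum from C57BL/6 mice at postnatal day 14. EED-/- stands for a conditional knockout of Eed, whose product is needed by Polycomb repressive complex 2 to write the repressive histone mark H3K27me3. The labels name neither a Cre line nor the cells it acts in, and no allele beyond WT and EED-/-. Nor do they tie each library to its own animal, so p-values measure the spread between these libraries, which may be technical. ChIP-seq samples of H3K27ac, H3K27me3 and input are part of the series and were not analysed here.

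At the neuromuscular junction, acetylcholine released by a motor neuron opens a pentameric channel built from alpha1, beta1 and delta subunits together with gamma in fetal muscle or epsilon in adult muscle. Agrin, secreted by the nerve, binds LRP4 on the muscle membrane. LRP4 then activates the receptor tyrosine kinase MuSK with the adaptor DOK7, and the scaffold rapsyn clusters the receptor. The gamma-containing form marks developing and denervated muscle. Brain neurons use a separate set of nicotinic subunits, while agrin and LRP4 are also made in the brain.

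The libraries held 19621672 to 20366041 counts after rounding, and levels are given in CPM, counts scaled to library size with TMM factors, of which 1 equalled 18.6 to 21.3 counts. Eed, the targeted gene, was at 20.1 to 26.6 CPM in WT and 9.31 to 11.6 CPM in EED-/- libraries. Among the 18091 genes tested, 25.8% passed an adjusted p of 0.05, 11.7% as higher and 14.1% as lower in EED-/- (edgeR quasi-likelihood F test, Benjamini-Hochberg). The genotypes did not overlap in 43.9% of tested genes, and in 20.1% every EED-/- library lay above every WT library. Mitochondrial transcripts took 3.21 to 6.37% of counts in WT and 6.45 to 8.04% in EED-/-, and their part in the results was not tested. Markers of cerebellar cells were present: 6 granule neuron genes, all lower in EED-/-, summed to 2669 to 3379 CPM in WT and 199.98 to 345.9 CPM in EED-/-. Purkinje cell genes, 6 in number, summed to 3410 to 4081 and 3675 to 5059 CPM, with 0 called by edgeR or limma-voom, 1 by DESeq2 and 1 at an unadjusted p under 0.05. Bergmann glia genes, 4 of 5 lower, summed to 2336 to 2504 CPM in WT and 1199 to 1400.4 CPM in EED-/-. These are bulk values, in which fewer cells of a type and less RNA per cell cannot be told apart.

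Of the 9 tested genes of the set, 6 passed the threshold as higher in EED-/- and 0 as lower, beside backgrounds of 11.7% and 14.1%. The same 6 genes had no overlap between genotypes, beside 20.1%. Chrna1, Chrnd, Chrng, Musk and Rapsn had 0 to 9 counts in each WT library. They passed the count filter only through their EED-/- libraries and could hardly be called lower. This limits what the counts of calls and the median log2 fold change say beside the shares over all tested genes. Since the genes were chosen with this contrast known, their differences are given as a description, without p-values. Across the 9 tested genes the median log2 fold change was 1.41, also with Chrnd at the bound described below, against -0.03 over all tested genes. The 6 were not alike: Chrna1, Chrnd and Chrng passed under all 13 alternative settings, whereas Musk, Rapsn and Agrn lost their call under 8, 6 and 5 of them. DESeq2 called 4 of the set higher. The authors' deposited table called Chrna1, Chrnd, Chrng and Agrn higher and 0 of the set lower. Of the 35173 genes with a p-value in the authors' deposited table, 6.04% were called higher and 6.7% lower. This wider base includes genes too low to be tested here.

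**Figure D1:**
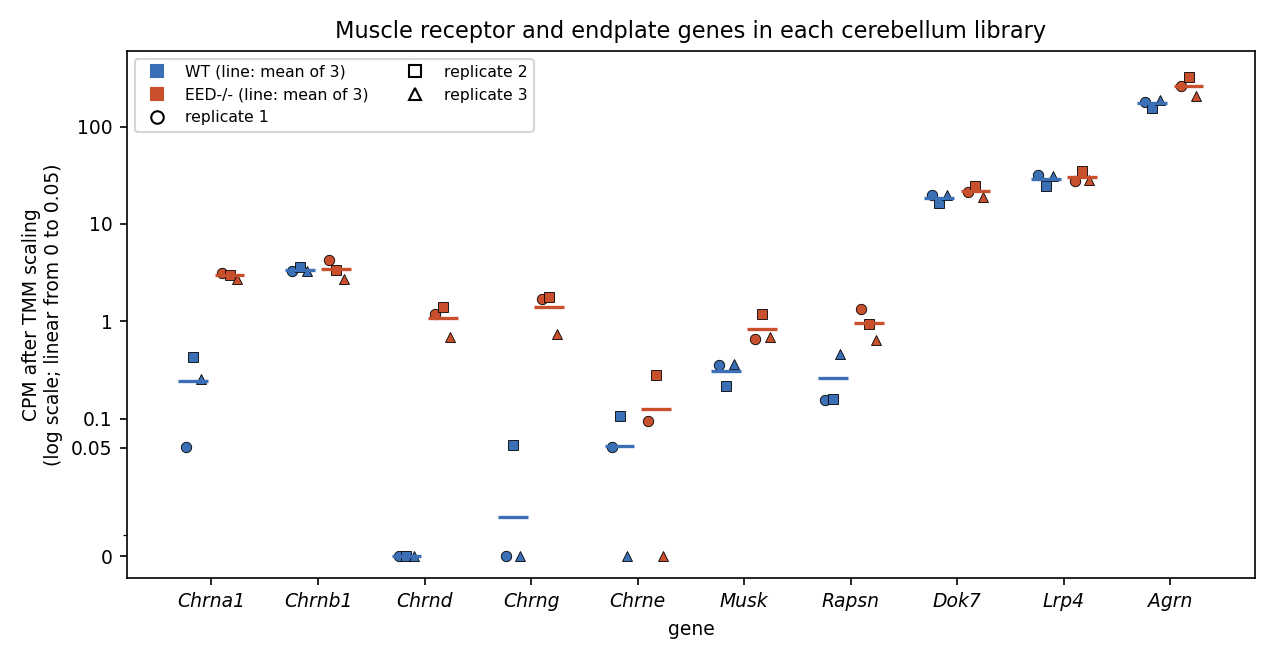
Level of each of the 10 genes in CPM (log axis, linear from 0 to 0.05) in the 3 WT (blue) and 3 EED-/- (orange) libraries; each point is a library and each line a mean. Chrna1, Chrnd and Chrng are at 0 to 0.429 CPM in WT and 0.685 to 3.12 CPM in EED-/-, while Chrnb1, Chrne, Dok7 and Lrp4 overlap between genotypes.

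Among the receptor subunits, the ligand-binding alpha1 gene Chrna1 (ENSMUSG00000027107.3, chromosome 2, 73563215 to 73580338, minus strand, GRCm38) was at 0.0513, 0.429 and 0.258 CPM in WT replicates 1, 2 and 3. In EED-/- replicates 1, 2 and 3 it was at 3.12, 3.01 and 2.74 CPM, resting on 56 to 66 counts a library. All EED-/- libraries were high and close together, and none overlapped WT. The log2 fold change was 3.56 (SE 0.460), and without WT replicate 2 it was 4.20.

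Chrnd (ENSMUSG00000026251.13) and Chrng (ENSMUSG00000026253.14), which encode delta and gamma, lie next to each other on the plus strand of chromosome 1, at 87190607 to 87200070 and 87204657 to 87212694, 4587 bases apart. Chrnd had 0 counts in every WT library and 25, 30 and 14 counts in EED-/- replicates 1, 2 and 3, or 1.18, 1.41 and 0.685 CPM. Set against a floor of 3 counts for the WT libraries together, it was at least 21.0-fold higher. Chrng had 0, 1 and 0 counts in WT and 36, 38 and 15 counts in EED-/-, the latter 1.70, 1.79 and 0.734 CPM. The ratio for Chrng was 81.4, with a 95% exact conditional interval of 14.2 to 3253 that covers counting error only. Its log2 fold change of 5.90 (SE 0.781) became 7.85 without WT replicate 2, the library with the WT count. In both genes EED-/- replicate 3 was the lowest of its group, and the genotypes did not overlap.

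The remaining subunits did not follow this pattern. Chrnb1 (ENSMUSG00000041189.9, chromosome 11, 69784036 to 69795943, minus strand), whose beta1 subunit is shared by fetal and adult receptors, was at 3.28, 3.59 and 3.26 CPM in WT and 4.31, 3.39 and 2.69 CPM in EED-/-. The EED-/- values spread on both sides of WT, with a log2 fold change of 0.04 (SE 0.220). Chrne (ENSMUSG00000014609.16, chromosome 11, 70614883 to 70619216, minus strand), the adult epsilon subunit, had 1, 2 and 0 counts in WT and 2, 6 and 0 counts in EED-/-. Its ratio of 2.44 had an interval of 0.586 to 14.3, so no difference was detectable at this depth. Chrne overlaps the opposite-strand gene 4930544D05Rik by 1043 bases, which was listed at 0 in both genotypes.

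Divided by annotated exon length, the subunits can be set side by side as levels. In EED-/- libraries Chrnb1 stood at 1.37 ± 0.320 CPM per kb (SD, n = 3) and Chrna1 at 0.675 ± 0.0449. Chrng and Chrnd were nearly level at 0.338 ± 0.141 and 0.332 ± 0.113 CPM per kb, and their libraries overlapped. Chrne was lowest at 0.0743 ± 0.0850 CPM per kb. In WT the same scale gave 1.33 ± 0.0743 for Chrnb1, 0.0562 ± 0.0431 for Chrna1, 0.0313 ± 0.0318 for Chrne and 0.00430 ± 0.00744 for Chrng, with Chrnd at 0. WT cerebellum thus had beta1 transcripts with alpha1, gamma and delta near or at 0, and the EED-/- libraries had transcripts of all these subunits. Bulk values do not show whether the same cells held them.

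**Figure D2:**
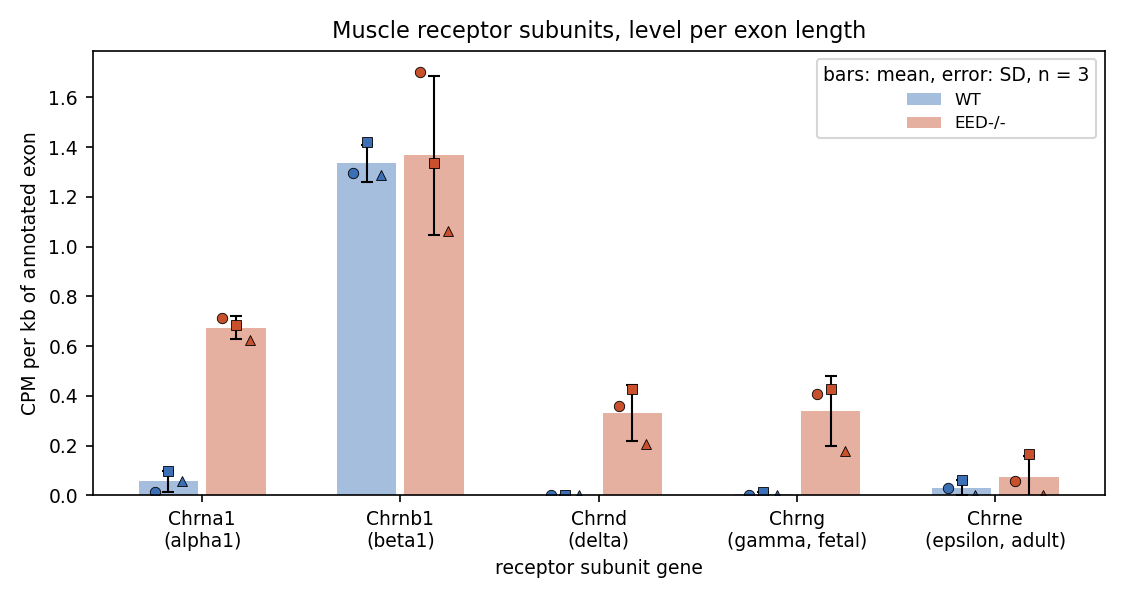
CPM per kb of annotated exon for the 5 receptor subunit genes, with bars for the mean, error bars for the SD (n = 3) and circles, squares and triangles for replicates 1, 2 and 3. Chrnb1 is near 1.3 CPM per kb in both genotypes, whereas Chrna1, Chrnd and Chrng are at 0.176 CPM per kb or more in the EED-/- libraries and below 0.1 in WT.

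The balance between the fetal gamma and the adult epsilon subunit can be read only in EED-/- libraries. There Chrng took 36 of 38, 38 of 44 and 15 of 15 of the counts of both genes in replicates 1, 2 and 3. Pooled, this was 89 of 97 counts, or 91.8% (95% exact Clopper-Pearson interval 84.4 to 96.4%), and 81.9% after division by exon length. The gamma transcript made up most of the counts in each of the 3 libraries. WT libraries held 4 counts of both genes together, 1 of Chrng and 3 of Chrne, too few for a share.

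Promoter sequences let the subunit genes and Musk be compared in front of their start sites. Entries in RefSeq's promoter table (GRCm38.p6) matched 7 of the 10 genes; Chrnd, Rapsn and Lrp4 were not matched. The windows are the 250 bases before the start site, printed from 5′ to 3′ along the gene. They were chosen to cover 3 genes higher in EED-/- (Chrna1, Chrng, Musk), Chrnb1, which was not called, and Chrne, the adult counterpart of Chrng. Capitals mark every match to CANNTG, the E-box bound by basic helix-loop-helix factors such as MyoD and myogenin, and to CCGGAA on either strand, the N-box known from endplate genes. The windows are chr2:73580339-73580588 (minus) for Chrna1, chr1:87205561-87205810 (plus) for Chrng, chr4:58285712-58285961 (plus) for Musk, chr11:69795938-69796187 (minus) for Chrnb1 and chr11:70619195-70619444 (minus) for Chrne. The Chrng window lies inside the gene as GENCODE places it, which begins at 87204657, and was not compared with its exons.
Chrna1: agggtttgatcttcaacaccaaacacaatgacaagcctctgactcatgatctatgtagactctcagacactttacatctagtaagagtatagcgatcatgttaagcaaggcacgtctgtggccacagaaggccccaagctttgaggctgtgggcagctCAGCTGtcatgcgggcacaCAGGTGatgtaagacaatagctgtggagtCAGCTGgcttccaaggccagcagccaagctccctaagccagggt
Chrng: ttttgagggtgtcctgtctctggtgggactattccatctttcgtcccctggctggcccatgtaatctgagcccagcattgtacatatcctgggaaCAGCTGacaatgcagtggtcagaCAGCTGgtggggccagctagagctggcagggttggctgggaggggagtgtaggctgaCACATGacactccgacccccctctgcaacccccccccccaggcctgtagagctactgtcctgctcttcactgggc
Musk: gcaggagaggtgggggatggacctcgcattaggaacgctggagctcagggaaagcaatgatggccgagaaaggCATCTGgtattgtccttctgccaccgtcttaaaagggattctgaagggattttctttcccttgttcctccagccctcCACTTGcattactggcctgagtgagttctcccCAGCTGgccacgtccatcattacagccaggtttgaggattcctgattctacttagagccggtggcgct
Chrnb1: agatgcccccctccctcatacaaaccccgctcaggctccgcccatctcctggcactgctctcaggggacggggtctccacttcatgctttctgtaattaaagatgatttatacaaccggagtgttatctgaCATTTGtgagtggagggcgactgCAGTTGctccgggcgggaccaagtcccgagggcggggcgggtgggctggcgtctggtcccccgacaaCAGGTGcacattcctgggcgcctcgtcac
Chrne: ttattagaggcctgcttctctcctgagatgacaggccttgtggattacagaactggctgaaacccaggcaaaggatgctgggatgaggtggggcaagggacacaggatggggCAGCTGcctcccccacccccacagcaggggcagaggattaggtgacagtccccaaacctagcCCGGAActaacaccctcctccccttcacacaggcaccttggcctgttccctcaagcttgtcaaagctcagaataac

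Chrna1, Chrng, Musk and Chrnb1 each held 3 E-boxes. Of 32851 promoter windows of the same length, 12.2% held 3 or more. In Chrna1 they began at -92, -73 and -44 from the start site, in Chrng at -155, -132 and -75, and in Musk at -177, -100 and -68. The form CAGCTG, a subset of CANNTG picked out after the sequences were read, occurred 2 times each in Chrna1 and Chrng, against 414 of the 32851 windows with 2 or more. It occurred once each in Musk and Chrne and was not found in the Chrnb1 window. The N-box letters were found in the Chrne window alone of these 5, and in 3952 of all windows. Among the other entries, the 2 windows of Agrn held 0 and 1 E-boxes and those of Dok7 held 1 and 0. A match describes letters, not binding. Chrna1 and Chrng, which were called, and Chrnb1, which was not, carried E-boxes, while Chrnd, also called, had no window to read.

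Of the organisers, Agrn, Lrp4 and Dok7 were plainly present in WT cerebellum, as was the subunit gene Chrnb1 at a lower level. Musk and Rapsn, at WT means of 0.312 and 0.260 CPM, were near Chrna1 at 0.246 CPM. Agrn (ENSMUSG00000041936.18, chromosome 4, 156165290 to 156197488, minus strand), the ligand agrin, was at 178.5, 153.4 and 186.8 CPM in WT and 260.0, 323.6 and 204.3 CPM in EED-/-, replicates in order. The groups did not overlap, but the gap between the highest WT and the lowest EED-/- library was small. Its log2 fold change was 0.60 (SE 0.172), and 4 of the 6 libraries each ended the call when left out. The values were then 0.52 and 0.66 without WT replicates 2 and 3, and 0.61 and 0.43 without EED-/- replicates 1 and 2. Gene-level counts do not separate the neural splice forms of agrin that cluster receptors from the others. Lrp4 (ENSMUSG00000027253.15, chromosome 2, 91457511 to 91513779, plus strand), the agrin receptor, was at 31.5, 24.5 and 31.3 CPM in WT and 27.6, 34.6 and 28.3 CPM in EED-/-. These libraries interleaved, and the log2 fold change was 0.05 (SE 0.146).

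Musk (ENSMUSG00000057280.15, chromosome 4, 58285960 to 58374303, plus strand), the kinase activated through LRP4, was low in both genotypes. It stood at 0.359, 0.215 and 0.362 CPM in WT and 0.663, 1.18 and 0.685 CPM in EED-/-, from 4 to 7 and 14 to 25 counts a library. All EED-/- libraries lay above all WT libraries, with a log2 fold change of 1.41 (SE 0.406). The call ended on leaving out any 1 of the 6 libraries, with values from 1.09 without EED-/- replicate 2 to 1.59 without EED-/- replicate 3. Dok7 (ENSMUSG00000044716.12, chromosome 5, 35056766 to 35087839, plus strand), the MuSK adaptor, was at 19.8, 16.4 and 19.6 CPM in WT and 21.2, 24.5 and 19.0 CPM in EED-/-. Its groups overlapped, and the log2 fold change was 0.21 (SE 0.141).

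Rapsn (ENSMUSG00000002104.11, chromosome 2, 91035620 to 91045729, plus strand), the scaffold rapsyn, was at 0.154, 0.161 and 0.465 CPM in WT and 1.33, 0.941 and 0.636 CPM in EED-/-. WT replicate 3 was the highest of its group and EED-/- replicate 3 the lowest of the other, without overlap. The log2 fold change was 1.87 (SE 0.504), and 2.57 when WT replicate 3 was left out. Leaving out WT replicates 1 and 2 (1.65 and 1.62) or EED-/- replicates 1 and 2 (1.58 and 1.89), each in turn, ended the call. The opposite-strand transcript Gm13778 overlaps Rapsn by 1638 bases; it was at 0.192 and 0.175 CPM in WT and EED-/-, and whether strand was used in counting is not stated in the labels.

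As levels per exon length, the organisers in EED-/- libraries ran from Agrn at 28.3 ± 6.43 CPM per kb through Dok7 at 5.05 ± 0.649, Lrp4 at 2.88 ± 0.365 and Rapsn at 0.537 ± 0.192 to Musk at 0.223 ± 0.0768. WT means gave the same order, from 18.6 ± 1.87 for Agrn to 0.144 ± 0.0986 for Rapsn and 0.0826 ± 0.0223 for Musk, the last pair overlapping. Over all 10 genes in EED-/-, Chrna1 and Rapsn overlapped as neighbours in this order, as did Rapsn, Chrng, Chrnd and Musk. Agrn ranked above 84.6% of tested genes per exon length in WT and 91.4% in EED-/-. Chrna1 ranked above 0.641% in WT and 17.3% in EED-/-, so in both genotypes it was among the less abundant transcripts of the tissue.

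**Figure D3:**
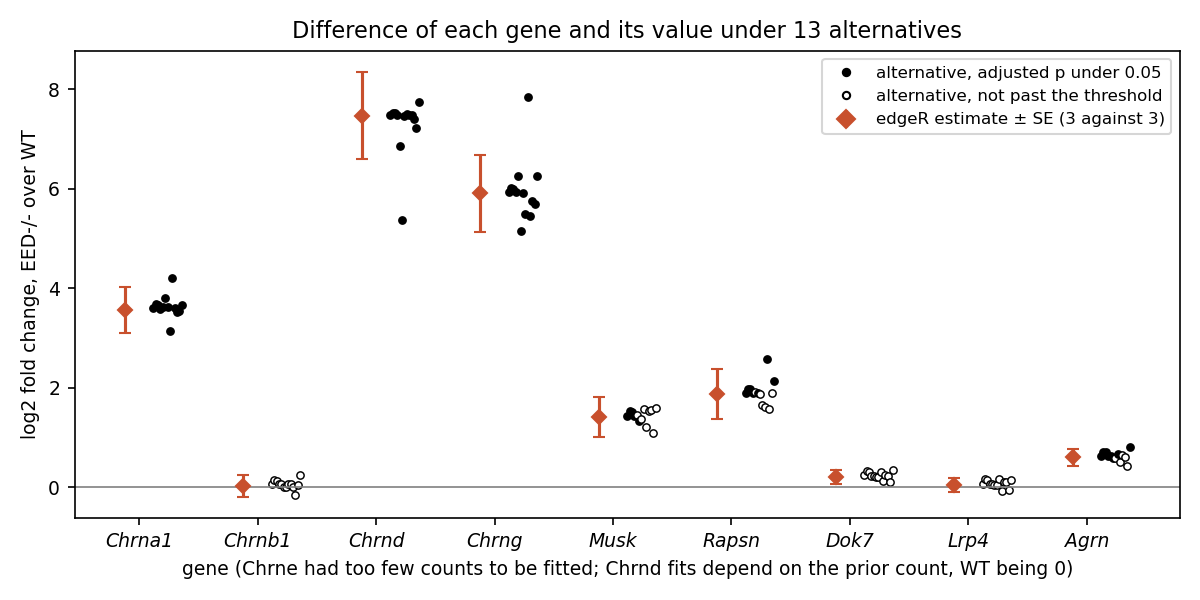
Log2 fold change of EED-/- over WT for the 9 tested genes, with the edgeR estimate ± SE (orange; for Chrnd, at 0 in WT, this fit depends on the prior count and is no measured fold) and the values under 13 alternative settings (black filled where past the threshold, open where not). Chrna1, Chrnd and Chrng stay filled throughout, Musk, Rapsn and Agrn have 8, 6 and 5 open points, and Chrnb1, Dok7 and Lrp4 have open points alone.

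Genes beside the set on the chromosome were taken as the nearest tested protein-coding gene on each side, after the values of the set were known. Eif4e2, a cap-binding protein gene 1220 bases beyond Chrng, was at 65.2 ± 3.30 CPM in WT and 66.8 ± 1.39 CPM in EED-/- (log2 fold change 0.04; edgeR adjusted p = 0.827). On the other side Ecel1, 34086 bases before Chrnd, rose from 9.58 ± 2.75 to 17.2 ± 0.848 CPM (log2 fold change 0.85; edgeR adjusted p = 0.0181). Chrna1 lies between Wipf1, at 29.6 ± 1.85 and 31.9 ± 2.95 CPM, and Chn1, which rose from 99.7 ± 7.77 to 157.2 ± 12.4 CPM (edgeR adjusted p = 0.00439). The neighbours of Musk and Rapsn, where called, fell: Svep1 and Lpar1 beside Musk by 1.01 and 0.46 on the log2 scale, and Celf1 beside Rapsn by 1.04. Beside Agrn, Chrnb1, Chrne, Dok7 and Lrp4, the only neighbour called was Rnf223 next to Agrn (log2 fold change -1.03). Over all tested genes 25.8% were called in either direction, and an effect of position was not tested.

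Genes of the muscle fibre itself moved with the receptor subunits, and their part in the receptor values was not tested. All 5 genes of a list of embryonic and perinatal sarcomere genes were called higher, as were all 6 of slow fibre genes and 9 of 10 tested genes of adult fast fibres. The exception was Pvalb, a calcium buffer that cerebellar neurons express strongly, which fell. Of all tested genes 11.7% were called higher and 14.1% lower. Fibre genes with few WT counts, among them Myh8 and Ckm, passed the count filter only through their EED-/- libraries. Such genes could hardly be called lower. Summed over the list, embryonic and perinatal sarcomere genes were at 2.92 to 3.76 CPM in WT and 84.2, 98.7 and 62.7 CPM in EED-/- replicates 1, 2 and 3, led by Myh3, Myh8 and Tnnt2. Adult fast fibre genes without Pvalb summed to 5.63 to 7.44 CPM in WT and 62.5, 70.2 and 46.7 CPM in EED-/-, led by Acta1 and Myl1. Slow fibre genes summed to 7.86 to 9.23 CPM in WT and 73.3, 61.6 and 66.8 CPM in EED-/-, led by Myh7, Tnnt1 and Tnni1. EED-/- replicate 3, lowest for Chrnd and Chrng, was also lowest for the embryonic and fast lists. Chrna1, Chrnd and Chrng summed to 0.0513, 0.483 and 0.258 CPM in WT and 6.01, 6.21 and 4.16 CPM in EED-/-.

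Other cells that a dissected cerebellum can hold were measured in the same way. Beside their counts, edgeR called 11.7% of all tested genes higher and 14.1% lower, and a count of 1 of 5 is near that share. Meningeal fibroblast genes, 9 of 9 called higher, summed to 364.3 to 437.3 CPM in WT and 855.5, 1156 and 848.7 CPM in EED-/-, led by Igf2, Col1a2 and Col1a1. Blood genes, led by Hbb-bs, Hba-a2 and Hba-a1, summed to 257.5 to 558.6 CPM in WT and 1782, 1267 and 360.5 CPM in EED-/-, with 0 of 6 called by edgeR and the groups overlapping. At an unadjusted p under 0.05 edgeR counted 5 of these 6, while DESeq2 called 1 and limma-voom 0. Schwann cell genes, among them Cdh19 and Prx, overlapped at 14.3 to 17.1 and 11.6 to 26.3 CPM, with 1 of 5 called, Foxd3, and Pmp2 at 0 counts in WT. Motor neuron genes, led by Slc5a7, Prph and Slc18a3, summed to 36.0 to 50.8 CPM in WT and 56.1 to 85.1 CPM in EED-/-, without overlap. Of 5 tested motor neuron genes edgeR called 1 higher, Isl1, with 2 at an unadjusted p under 0.05, and DESeq2 called 3. Mnx1, a defining motor neuron gene named after its values were seen, was too low to be tested, with 2 counts over the WT and 29 over the EED-/- libraries. Satellite cell genes summed to 113.1 to 119.8 CPM in WT and 96.9 to 104.4 CPM in EED-/-, and the list was mixed. Pax7, Calcr and Vcam1 rose, Cdh15 and Itga7 fell, and Myf5 had 1 count in WT and 0 in EED-/-. Itga7, Cdh15 and Vcam1, at WT means of 58.4, 27.9 and 25.9 CPM, carried the sum. Pax7 and Calcr, at 2.01 and 2.73 CPM in WT and 9.21 and 6.37 CPM in EED-/-, hardly entered it. Whether any of these cells contributed to the receptor transcripts was not tested.

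**Figure D4:**
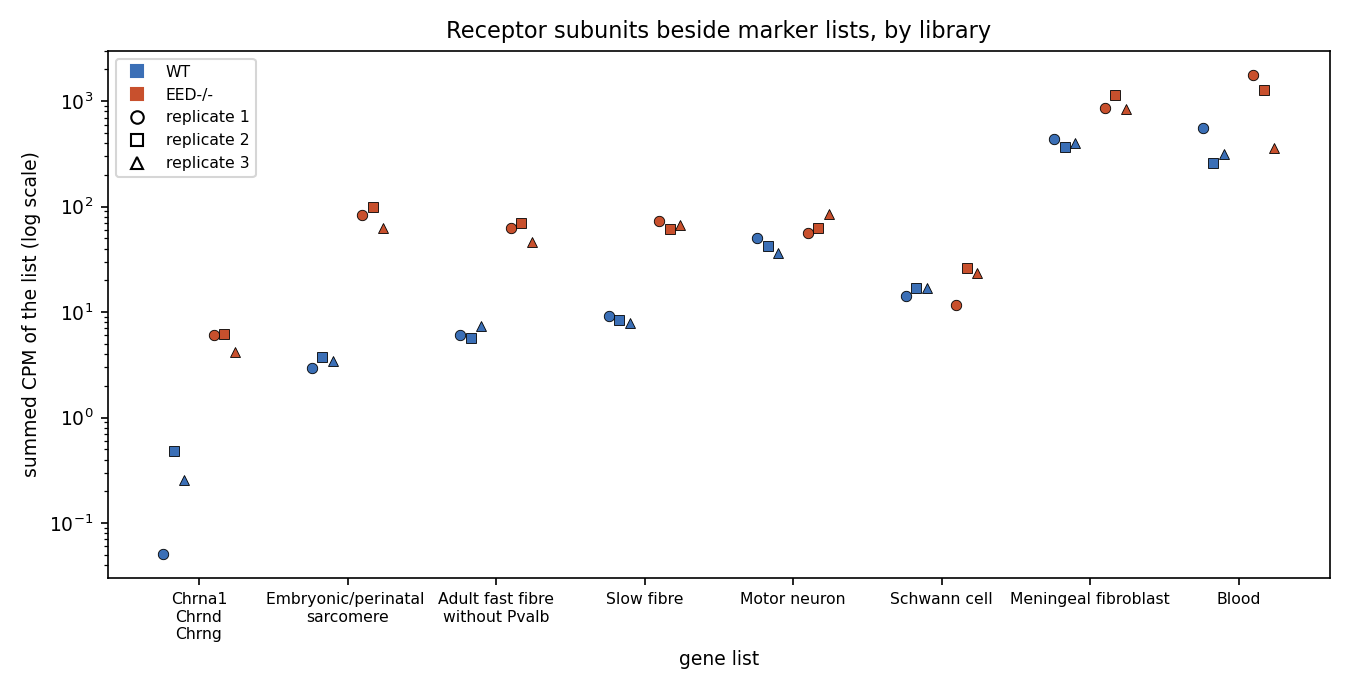
Summed CPM (log axis) of Chrna1, Chrnd and Chrng and of 7 marker lists in each library, WT in blue and EED-/- in orange, with circles, squares and triangles for replicates 1, 2 and 3. The receptor genes and the 3 muscle fibre lists separate the genotypes most widely, whereas the Schwann cell and blood lists overlap.

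Regulators of myogenesis, among them the factors that activate receptor subunit genes in muscle, were measured as 18 genes, 15 of them tested. Of these 6 rose and 1 fell, beside 11.7% and 14.1% of all tested genes, with a median log2 change of 0.62 against -0.03 over all. Myog, which encodes myogenin, went from 2, 2 and 0 counts in WT to 41, 58 and 27 counts in EED-/-. In CPM this was 0.0700 ± 0.0606 and 1.997 ± 0.705 (log2 fold change 4.72, SE 0.601). Mymk, the fusion factor myomaker, rose from 0.140 ± 0.0799 to 1.47 ± 0.552 CPM. Pax7 and Eya1, factors of muscle and of neural progenitors, rose 4.56-fold and 2.46-fold. Eya4 and Mef2c, named after their values were seen, rose 3.89-fold and 1.65-fold, while Mef2d, abundant in neurons, fell 1.76-fold and a further gene was called lower without WT replicate 1.

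The other 3 factors of the MyoD family did not show the level of Myog. Myod1 was at 0.616, 0.376 and 0.362 CPM in WT and 0.994, 0.753 and 0.343 CPM in EED-/-. Its libraries overlapped and it was not called (log2 fold change 0.62, SE 0.460). Myf6 had 1 count over the WT libraries and 7, 7 and 9 counts in EED-/-, too few to be tested. Myf5, with 1 count in all 6 libraries, and Mymx, which encodes the fusion factor myomixer and also had 1, were near absent. Myod1, Myf6, Myf5 and Mymx were singled out after their values were seen, the first 3 as members of the family that binds E-boxes.

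The neuronal nicotinic subunits offer a comparison within the receptor family. Of 11 genes 9 were tested, 6 rose and 1 fell, beside 11.7% and 14.1% of all tested genes, with a median log2 change of 0.96. Chrna4, with beta2 the main high-affinity brain receptor, was at 28.6, 24.9 and 33.7 CPM in WT and 86.8, 76.3 and 58.6 CPM in EED-/- (log2 fold change 1.35, SE 0.174). Its partner Chrnb2 went the opposite way, from 198.2, 147.5 and 153.2 CPM to 107.9, 94.3 and 100.7 CPM (log2 fold change -0.72, SE 0.139). Neither gene had overlapping groups. Chrna5, an accessory subunit, and Chrna3, a subunit of ganglionic receptors, rose 3.92-fold and 1.95-fold.

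Chrna6, Chrnb3 and Chrna7, named after their values were seen, completed the count. Chrna6 and Chrnb3, partners in catecholamine neurons, were highest in EED-/- replicate 1, at 10.7 and 7.20 CPM, with 4.23 and 3.52 CPM and 2.77 and 2.55 CPM in replicates 2 and 3. In WT they were at 0.770 to 1.499 and 0.667 to 1.29 CPM. Without EED-/- replicate 1 the log2 fold changes of 2.42 and 2.09 became 1.75 and 1.44, still past the threshold. Chrna7, the homomeric alpha7 subunit, rose 1.67-fold, and its call ended without WT replicate 3 or EED-/- replicate 1 or 2 (0.64 to 0.92 on the log2 scale over all alternatives). Chrna9 had 0 counts and Chrna10 had 3 WT and 4 EED-/- counts.

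**Figure D5:**
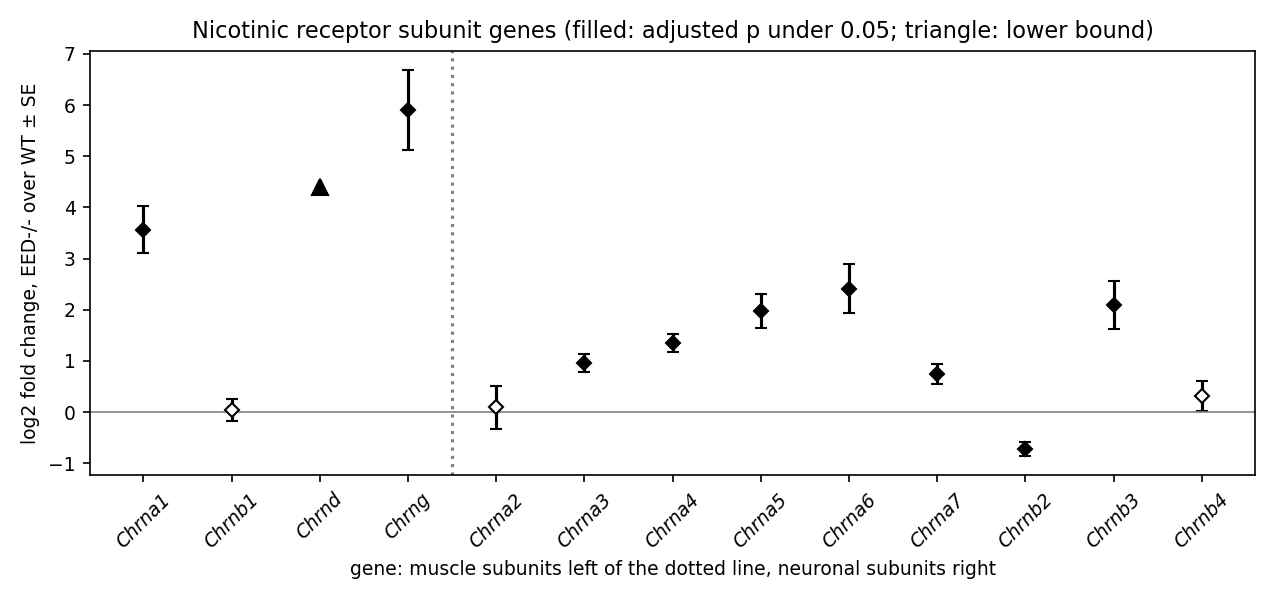
Log2 fold change of EED-/- over WT with SE for 4 muscle (left) and 9 neuronal (right) nicotinic subunit genes, filled where the adjusted p was under 0.05, with Chrnd drawn as a triangle at its lower bound of 4.396. Chrng is at 5.90 and Chrna1 at 3.56, 6 neuronal subunits lie between 0.74 and 2.42, Chrnb2 is at -0.72, and Chrnb1, Chrna2 and Chrnb4 are not past the threshold.

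Genes for acetylcholine handling and muscarinic receptors gave 5 of 12 higher and 0 lower, beside 11.7% and 14.1% of all tested genes, with a median log2 change of 0.57 against -0.03. The muscarinic receptor genes Chrm1, Chrm3, Chrm5 and Chrm2 rose 2.32-fold, 1.51-fold, 4.39-fold and 2.03-fold, and Bche, a cholinesterase named after its value was seen, 2.19-fold. This count of 5 became 1 when WT replicate 3 or EED-/- replicate 1 was left out, and 2 without EED-/- replicate 2. Chrm1 was called in all 13 alternatives, while Chrm3 lost its call without WT replicate 3 or EED-/- replicate 1, and Chrm5 when WT replicate 1 or 3 or EED-/- replicate 1 or 2 was omitted. Chrm2 and Bche lost theirs with no filter and on omitting WT replicate 3 or any EED-/- library. Chrm5 rested on 13 WT and 64 EED-/- counts, and without WT replicate 2 its log2 fold change of 2.13 became 3.23. The synthetic enzyme Chat was at 5.18 ± 1.09 and 7.61 ± 2.49 CPM, and Colq, which anchors cholinesterase at the endplate, at 7.66 ± 0.825 and 6.50 ± 1.56 CPM, neither past the threshold.

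The postsynaptic scaffold and the partners of MuSK signalling gave few calls: 4 of 31 rose and 4 fell, near the background shares, with a median log2 change of 0.06. Sntb1, a syntrophin of the dystrophin complex, rose from 5.74 ± 0.805 to 14.9 ± 0.297 CPM. Scn4a, the sodium channel of skeletal muscle, rose from 0.122 ± 0.0612 to 0.872 ± 0.289 CPM, and Sgca, the muscle sarcoglycan, 2.59-fold. Pak1, a kinase with high expression in neurons, fell 1.72-fold. The others, named after their values were seen, included Sgcd (higher) and Dtna and Dvl1 (lower). The call of Sgca ended on omitting WT replicate 3 or EED-/- replicate 1, and that of Sgcd on omitting EED-/- replicate 1 or 2. Dtna and Dvl1 each lost their call in 4 of 13 alternatives. Without EED-/- replicate 1 the counts were 2 higher and 1 lower, and without EED-/- replicate 2 the lower count was 2.

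Among the genes whose profile over the 6 libraries was closest to the average of Chrna1, Chrnd and Chrng were Tnnt2, H19, Vax2 and Ampd1. Likeness was the root mean square distance between mean-centred log2 CPM profiles, which was 0.20 for Tnnt2, 0.25 for H19, 0.26 for Vax2 and 0.31 for Ampd1. Tnnt2, a troponin of embryonic and cardiac muscle, rose from 1.256 ± 0.332 to 16.2 ± 1.78 CPM. The imprinted RNA H19 rose from 7.502 ± 0.813 to 82.7 ± 11.8 CPM. Vax2 had 0 WT and 70 EED-/- counts, and Ampd1, the AMP deaminase of muscle, 3 and 85.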

How the data were processed

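Polyadenylated RNA of 6 cerebellum samples was analysed. The authors deposited estimated counts per gene; between 22.5% and 23.6% of each library's values differed from a whole number by over 1e-06. Salmon 1.1.0, Trimmomatic 0.36, Bowtie2 2.4.1, MACS2 and DESeq2 1.26.0 are listed, without roles, per the submitters' processing notes. The authors' deposited table of differences holds log2 fold changes, p-values and adjusted p-values, with the mean scaled count as a signal and the Wald statistic as a score per the file headers; symbols came from it. Tools for each step are not given in the sources used here.

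Counts were rounded, filtered with filterByExpr (18091 of 35196 genes kept), scaled by TMM and tested with edgeR 4.0.16 in R 4.3.3 (glmQLFit and glmQLFTest, robust; genotype as the only term; two-sided; threshold 0.05, Benjamini-Hochberg). SE was obtained as the absolute log2 fold change over the root of F. Alternatives used DESeq2 1.42.0, limma 3.58.1 (voom), other scalings, no filter, a replicate block and leaving out each library. The procedure was tested on simulated counts in which all genes shared the same spread between replicates, which these libraries need not do. Positions and exon lengths came from GENCODE vM21 (GRCm38), matched for all 10 genes; values per kb use the union of exons, which only approximates the transcript lengths expressed. Replicate pairs differed beyond sampling noise (chi-square of 9.11 to 61.4 for each degree of freedom). Intervals and floors cover counting error only, and the labels name no molecular identifiers.

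The members and lists were chosen with earlier results of these data known. Their differences and counts of calls are therefore descriptions, and no p-values of their single genes are printed. Genes with few WT counts, such as Myog, Mymk and Scn4a in the lists, passed the count filter only through their EED-/- libraries. Genes were named by rule: the set, Eed, in each list up to 4 called genes ranked by adjusted p, the 3 most abundant of each marker list, and the 5 closest profiles with at least 1 CPM. Genes named otherwise are marked, and some genes that the rule names are not reported here. Protein sequences were not used here.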

Additional observations from a re-analysis of the deposited data

How the results depend on the processing

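Counts of calls over all genes, the set and the pathway lists were recomputed under 13 alternatives, as were fold changes of the set and of called genes in those lists. The marker lists were recounted only with DESeq2, with limma-voom and at an unadjusted p under 0.05. The Chrng share was recomputed per exon length alone. Of 236 values compared, 203 stayed the same, meaning within 1.5 times for counts and within its interval for the Chrng share. Chrne, Musk, Rapsn and Chrnd rest on 8, 53, 61 and 69 counts in the EED-/- libraries together; Chrne was too low to be tested. Deviations from the group mean in same-numbered WT and EED-/- libraries correlated across genes at 0.03, -0.23 and -0.001. Libraries of unlike number gave values from -0.19 to 0.20. With 3 libraries a group, these correlations cannot decide whether the numbers pair the samples. With the replicate block 3 genes of the set were called in place of 6, and 0 enzymes of receptor assembly were lower in place of 1. That last count was also 0 with RLE size factors, library size alone and upper-quartile scaling, and 2 with no filter and with DESeq2. Basal lamina genes called higher numbered 5 with library size alone or upper-quartile scaling, against 3. With no filter 3 acetylcholine and muscarinic genes were higher and 2 myogenic regulators lower, and DESeq2 also gave 2 of the latter. The Chrng share in EED-/- was 81.9% per exon length, against 91.8%. Higher genes made up 45.5% of all calls with TMM, 58.6% with library size alone and 61.3% with upper-quartile scaling, which moved the median of all genes up by 0.0999 and 0.117 on the log2 scale.

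Leaving out each library in turn gave 1205 to 2176 higher and 1335 to 2476 lower genes, against 2125 and 2544, lowest in both without EED-/- replicate 1; without WT replicate 3 they were 1324 and 1640, and without EED-/- replicate 2 1337 were higher and without EED-/- replicate 3 1677 lower. The set had 3 to 5 higher. Acetylcholine and muscarinic genes had 1 to 6 higher, the postsynaptic scaffold 2 to 5 higher and 1 to 4 lower, basal lamina 3 to 5 higher, receptor assembly 0 to 1 lower, and myogenic regulators 1 to 2 lower. Over the same omissions the log2 fold change of Chrnb1 ran from -0.15 (without EED-/- replicate 1) to 0.24, and that of Lrp4 from -0.062 (without WT replicate 2) to 0.16, and was -0.057 without EED-/- replicate 2; neither gene was called in any setting. The edgeR counts of 0 for the set, the acetylcholine and basal lamina lists (lower) and the assembly list (higher) were also 0 at an unadjusted p under 0.05, with DESeq2 and with limma-voom. Where a value moved, the cause was not tested.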

Other observations

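Other genes tied to the endplate were measured from lists chosen with earlier results known. Of 13 genes of the synaptic basal lamina, 3 rose and 0 fell, beside 11.7% and 14.1% of all tested genes, with a median log2 change of 0.35 against -0.03. Col4a6 and Col4a5, collagen IV chains, rose 2.70-fold and 1.94-fold, and Nid2, a nidogen, 1.78-fold; the higher count was 5 without WT replicate 1. Meningeal fibroblast genes were also higher in EED-/-, 9 of 9, and their part in these values was not tested. Laminin beta2, Lamb2, was at 43.8 and 56.0 CPM and was not called.

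A list of genes linked to muscle denervation, which holds genes that denervated muscle raises and genes that it lowers, gave 4 of 10 higher and 1 lower. The background was 11.7% and 14.1%. Runx1, a transcription factor raised in denervated muscle, rose 2.79-fold. Hdac9, a histone deacetylase that denervated muscle lowers, rose 1.90-fold. Sln, named after its value was seen, rose 2.85-fold, a call that ended without WT replicate 2 or 3 or EED-/- replicate 1 or 2. Hdac4, a histone deacetylase that denervated muscle raises, fell 1.68-fold, and Ncam1, abundant in neurons, was at 512.0 and 491.7 CPM. Of 7 genes for receptor assembly and congenital myasthenia, 0 rose and 1 fell, near the background of 14.1% lower: Tmem35a, a chaperone of nicotinic receptors, by 0.48 on the log2 scale, a call lost in 8 of 13 alternatives.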
